A study of Saccharomyces cerevisiae with 11 samples.

Results

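Glycine to methionine variants are designed peptides of 20 residues in which some glycines of a parent peptide were exchanged for methionine, with every other residue left in place. They were taken as the entries of the deposited table that carry this design name, which gives 100 of 12400 entries. Each variant was matched to the entry that has glycine wherever the variant has methionine, and a parent was found for all 100. No variant peptide was carried by a second entry. Such peptides were assayed in Y2H Gold, a two-hybrid reporter strain of budding yeast, by growing the pooled library and counting each entry by DNA sequencing. All groups therefore share the Y2H Gold background, the pooled library and growth in medium without tryptophan. The 11 samples comprise a starting culture taken at 0 h, growth without aureobasidin for 12 or 24 h, and growth for 12, 24, 48 or 72 h at doses of aureobasidin whose labels read 150 and 200. Each sample holds 5 barcoded sub-libraries, called biological replicates by the series text although nothing says that they were separate cultures, so the p-values measure the spread between barcoded sub-libraries. The dose numbers are printed without a unit because the labels disagree on it, and the growth protocol mentions antibiotic for every sample, so groups were taken from the titles.

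Acidic activation domains recruit coactivators such as Mediator through hydrophobic and aromatic side chains that acidic residues keep exposed to solvent. Glycine has no side chain, whereas methionine carries a long, flexible, unbranched hydrophobic one, and leucine and isoleucine carry branched ones. In Y2H Gold, activation switches on the AUR1-C reporter, whose product is a form of inositol phosphorylceramide synthase that aureobasidin A does not inhibit. A cell whose peptide activates can keep dividing in the antibiotic, and its entry then gains share of the pool.

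Peptides are named here by their number in the library, and positions are counted from 1 at the N-terminus. The variants on which the results turn differ in where the methionines lie and what they touch. In variant 8235, the most abundant at the end of selection, the methionines lie at position 5 between aspartates, at 12 between a tryptophan and a glycine, and at 16 between a glycine and a tryptophan. Variant 8222, with the largest gain over its parent, has methionines at positions 1, 6, 11, 12 and 15, of which those at 1, 6, 12 and 15 precede an aspartate. Variant 8193, whose parent was nearly lost, has them at 2, 3, 12, 16 and 18, with the one at 12 between aspartates. Variant 8278, with the largest gain over its leucine counterpart, has them at 2, 3, 6 and 14, with the one at 14 between tryptophans. Among the variants that fell, 8250 has methionines at positions 1, 2, 3 and 20, so that they form its N-terminal run and its last residue. Variant 8246 has them at 2 and 4, beside the N-terminal tryptophans, and variant 8260 has them at 6, 16 and 18, with the one at 18 between tryptophans.

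The design ties several features together. Each variant exchanged as many glycines as it left, and each peptide has as many tryptophans as aspartates. A variant with 1 methionine has 9 tryptophans and 9 aspartates, and 1 such variant exists. There are 11 variants with 2 methionines and 8 tryptophans, 30 with 3 and 7, 35 with 4 and 6, 20 with 5 and 5, and 3 with 6 methionines and 4 tryptophans. The number of methionines can therefore not be told apart from the number of tryptophans and aspartates. In all 100 parents the tryptophans lie towards the C-terminus, with a mean position between 12.1 and 15.8. The variants hold 371 methionines. At the preceding position 114 have a tryptophan, 107 an aspartate, 74 a glycine and 58 another methionine, while 18 are the N-terminal residue. At the following position 113 have a tryptophan, 110 an aspartate, 78 a glycine and 58 a methionine, while 12 end the peptide.

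Total counts per library ran from 683589 to 3392656, and 3 counts in the 5 libraries of 1 group together, taken as the floor, equal 0.234 to 0.618 CPM, the reads per 1e+06 of a library. Floors and intervals cover counting error only, since PCR reads lacked molecular identifiers and are not independent of each other. Entries that begin with a stop codon held 0.4% of reads at 0 h, had no read after 72 h at dose 150 and held 0.00428% after 72 h at dose 200. If all such reads came from material like the 0 h pool, that material would have made up 9.52 to 17.8% of reads at 24 h at dose 200. The shares would be 3.72 to 5.31% at 48 h and 0.768 to 1.6% at 72 h, and low values there can hold such reads. After 72 h at dose 200 some members fell by up to 838 fold, further than these shares would leave. The shares thus do not hold for every entry, and the source of the reads was not tested. Taking reads off in these shares as an alternative left 52 pairs above and 3 below the parent at dose 200, where 48 and 3 passed as counted.

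As a group the methionine variants gained share of the library in the antibiotic. In the 5 barcodes at 0 h they held 4.31, 4.22, 4.02, 4.35 and 3.75% of all reads. At 72 h at dose 150 they held 19.8, 22.2, 15.2, 21.7 and 15.8%, and at dose 200 they held 19.4, 20.7, 14.3, 21.7 and 15.4%. All 5 values at either dose lay above all 5 at 0 h, and the groups did not overlap. The means were 4.13 ± 0.25% (SD, n = 5) at 0 h, 18.9 ± 3.3% after 72 h at dose 150 and 18.3 ± 3.27% at dose 200. Their 100 parents, with 2.63 ± 0.308% of reads at 0 h, held 2.51 ± 0.683% and 1.9 ± 0.682% at these times. The gain came mainly after 12 h of growth. Untreated cultures stood at 5.75 ± 0.421% at 12 h and 5.77 ± 0.399% at 24 h, and the dose 200 cultures stood at 5.72 ± 0.412% at 12 h, 10.3 ± 1.14% at 24 h and 17.3 ± 2.73% at 48 h. At dose 150 the share was 6.48 ± 0.489%, 10.1 ± 0.913% and 16.6 ± 2.29% at 12, 24 and 48 h.

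Within the group, reads gathered on fewer members. The effective number of members, which is the count of equally abundant members that would give the same diversity, was 58 ± 1.71 in the starting culture and 52 ± 2.9 after 24 h without antibiotic, and it fell to 34.3 ± 3.79 by 72 h at dose 150 and to 28.2 ± 3.13 at dose 200 (SD, n = 5 each). The 10 most abundant members held 26% of the members' reads at 0 h, 46.4% after 72 h at dose 150 and 57.3% at dose 200. The median member stood at 349.5 CPM at 0 h, 971 CPM after 72 h at dose 150 and 439 CPM at dose 200. The quartiles moved apart, from 169 and 597 CPM at 0 h to 7.12 and 1752 CPM after 72 h at dose 200. Of the 97 members with a mean of at least 10 counts at 0 h, 19 ended below 0.01 of their 0 h level after 72 h at dose 200 and 12 ended at 10 times that level or more, and at dose 150 these numbers were 19 and 10. These classes were not counted over all entries, whose median log2 change was -6.65 at dose 200 and -8.40 at dose 150 among those tested.

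Growth without antibiotic moved few members past the test that leaves out the pairing by barcode, and many past the test that includes it. Of 97 members tested between untreated cultures at 24 h and 0 h with edgeR, 0 rose and 1 fell at an adjusted p under 0.05, against 0% and 26.7% of all entries tested. At an unadjusted p under 0.05 there were 0 and 3, and DESeq2 called 4 higher. The median log2 change of the members was 0.40, against -1.87 over all entries tested. The barcode numbers pair the samples, and with the barcode as a block 58 members rose and 11 fell, against 9.12% and 74.6% of all entries. The member that fell, variant 8251, went from 43 ± 31.4 CPM at 0 h to 2.32 ± 2.44 CPM (SD, n = 5), a log2 change of -4.17 ± 1.17 (SE, edgeR adjusted p = 0.0174). Its parent had a log2 change of 0.01.

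After 24 h in the antibiotic, compared with untreated cultures that both doses share, edgeR without the barcode as a block made calls in the lower direction only. At dose 200, 0 of 93 members rose and 9 fell, against 0% and 8.07% of all entries tested. At dose 150, 0 of 93 rose and 10 fell, against 0% and 37.7%. At an unadjusted p under 0.05 the members higher were 6 at dose 200 and 2 at dose 150, and DESeq2 called 3 and 1. The median member had a log2 change of 1.17 at dose 200 and 1.12 at dose 150, where the medians over all entries were -1.02 and -1.81. With the barcode as a block, 62 members rose and 19 fell at dose 200, against 16.8% and 34.9% of all entries, and 65 rose and 18 fell at dose 150, against 19.2% and 58.2%. All 9 calls at dose 200 were lost when any barcode was left out.

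The largest of these early falls was that of variant 8242, which has a methionine between aspartates at position 8 and others between tryptophans at 15 and 17. It had 328, 59.9, 10.5, 12.1 and 40.5 CPM in the untreated barcodes at 24 h. It had no read in any of the 5 barcodes after 24 h at dose 200, so the groups did not overlap (edgeR adjusted p = 0.0173). Variant 8255 had 186, 701, 170.4, 185 and 314 CPM untreated and 0, 8.44, 0, 1.46 and 17.5 CPM at dose 200. Every treated value lay below every untreated one, with a log2 change of -5.82 ± 1.31 (edgeR adjusted p = 0.0217). Variant 8261 went from 451, 270.4, 361, 2393 and 1428 CPM to 18.5, 25.3, 15.7, 46.8 and 78.1 CPM, a 26.6-fold fall (edgeR adjusted p = 0.0169). The parents of these 3 variants fell by 72 h as well, with log2 changes at dose 200 of -8.95, -9.70 and -7.93.

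By 72 h the members had separated into gainers and losers, measured at either dose against the same 0 h libraries. At dose 200, 35 of 96 members tested rose and 29 fell against 0 h, where 1.88% of all entries tested rose and 91.2% fell. At dose 150, 47 of 96 rose and 26 fell, where 1.96% of all entries rose and 88.6% fell. The median log2 change of the members was 0.90 at dose 200 and 1.48 at dose 150, against -6.65 and -8.40 over all entries. With the barcode as a block the numbers were 54 higher and 38 lower at dose 200, against 3.44% and 94.5% of all entries, and 59 and 32 at dose 150, against 4.49% and 92.8%. The 35 members that rose at dose 200 did so in all 5 barcodes, by 3.56 to 33.6 fold with a median of 6.68 fold. Of the 29 that fell, 28 did so in all 5 barcodes. Sameness of direction over barcodes was not counted over all entries. These calls are changes in share of the pool, so they depend on the scaling. At dose 200, TMM factors moved the median of all entries by 4.40 on the log2 scale and gave 69 members higher and 18 lower, and DESeq2 moved it by 2.40 and gave 58 and 23. At dose 150 the shifts were 0.72 and 1.70.

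The member with the highest mean after 72 h at dose 200 was variant 8235, which has methionines at positions 5, 12 and 16, each beside an aspartate or a tryptophan. It stood at 947, 482, 464, 745 and 271 CPM in the 5 barcodes at 0 h. At 72 h it stood at 19191, 7627, 7980.0, 13932 and 4789.6 CPM at dose 150, and at 33919, 14618, 15058, 24183 and 10073 CPM at dose 200. Every barcode rose, the groups did not overlap, and the order of the barcodes by abundance was the same at both doses. The fold change at dose 200 was 33.6 (log2 change of 5.07 ± 0.81, edgeR adjusted p = 1.71e-07). Its parent stood at 126, 67.7, 265, 174 and 366 CPM at 0 h and at 12.6, 9.65, 32.4, 22.3 and 31.7 CPM after 72 h at dose 200. The parent thus fell, 9.17-fold (edgeR adjusted p = 0.000909), while the variant rose.

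The second member by abundance, variant 8256, has its 2 methionines at positions 12 and 14, each between tryptophans or beside an aspartate. It went from 799, 1391, 899, 328 and 1576 CPM at 0 h to 9821, 17931, 12224, 7444 and 17976 CPM after 72 h at dose 200. The groups did not overlap, and the rise was 13.1-fold (edgeR adjusted p = 1.30e-05). It had reached 5998 ± 2297 CPM at dose 150 (SD, n = 5). Its parent, with 93.3 ± 77.5 CPM at 0 h and 41.9 ± 48 CPM after 72 h at dose 200, did not pass the test (edgeR adjusted p = 0.221).

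Some high members came from parents that did not fall. Variant 8210, with methionines at positions 10, 12 and 19, came next. It had 1109, 1085, 269.7, 1858 and 387 CPM at 0 h and 15285, 14186, 3571, 27304 and 4948 CPM after 72 h at dose 200, a 13.9-fold rise. Its parent rose too, from 1002 ± 724 to 3985 ± 4126 CPM (log2 change of 1.99, edgeR adjusted p = 0.0158). In barcode 5 this parent went the other way, from 1993 to 1121 CPM. Without barcode 5 its change was 6.23-fold and the variant exceeded it by 1.31 ± 0.85 (limma adjusted p = 0.297), and without barcode 4 the parent's change was 2.52-fold and did not pass (edgeR adjusted p = 0.127). The variant's log2 change exceeded the parent's by 1.95 ± 0.92, which did not pass (limma adjusted p = 0.127), but did with the barcode as a block (adjusted p = 0.00226). Variant 8233 rose 14.4-fold at dose 200, and its parent went from 385 ± 223 to 1091 ± 592 CPM without passing (edgeR adjusted p = 0.072), but passed with the barcode as a block (adjusted p = 6.85e-15). The difference of 2.39 ± 1.05 did not pass either (limma adjusted p = 0.1), but did with the barcode as a block (adjusted p = 1.92e-06). The only variant with 1 methionine, variant 8201, had a log2 change near that of its parent. It went from 773, 200.1, 229, 223 and 201 CPM to 3573, 987, 1205, 1562 and 729 CPM, a 4.95-fold rise (edgeR adjusted p = 0.00666). Its parent rose by 1.99 on the log2 scale (edgeR adjusted p = 0.0277, but 0.0578 without barcode 2 and 0.0531 without barcode 3), and the difference between them was 0.26 ± 1.13 (limma adjusted p = 0.89).

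The variants with 4 methionines among the 10 most abundant were 8273, 8288, 8240 and 8278, of which 8273 and 8288 share methionines at positions 8, 18 and 20. They rose 18.7-fold, 19.7-fold, 6.95-fold and 15.5-fold at dose 200 (edgeR adjusted p = 4.75e-06, 7.41e-06, 0.00117 and 1.62e-05). In 8240 barcode 2 stood above the other barcodes at 0 h and at 72 h. In variant 8273 the values were 315, 959, 164, 638 and 1368 CPM at 0 h and 5660.3, 17372, 2323, 15330.5 and 23819 CPM after 72 h at dose 200. The groups did not overlap, and its parent fell from 258 ± 233 to 62.8 ± 51.2 CPM (edgeR adjusted p = 0.0294). The parents of the other three had means of 74.8, 58.6 and 117 CPM at 0 h and 48.4, 23.3 and 63.1 CPM at 72 h, and none of these 3 passed. The remaining member of the 10 with 3 methionines, variant 8277 with positions 2, 7 and 12, rose 18-fold, from 406 ± 295 to 7287 ± 6665 CPM, while its parent had a log2 change of -0.36 (edgeR adjusted p = 0.678). Barcode 4 stood above the others in this variant at 0 h and at 72 h.

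Members that were lost fell to a few reads. Variant 8246, with methionines alternating with tryptophans at its N-terminus and a run of aspartates behind them, had 601, 1218, 936, 84.7 and 415 CPM at 0 h. It had no read after 72 h at dose 150, which makes it at least 2296-fold lower against the floor of 3 counts over the group, and 10 reads over the 5 libraries at dose 200, 888-fold lower with a 95% counting interval of 482 to 1853. Its untreated level at 24 h was 1043 ± 738 CPM. Its parent went from 726 ± 458 CPM at 0 h to 1.69 ± 1.29 CPM after 72 h at dose 200 (edgeR adjusted p = 1.24e-08), with 1076 ± 671 CPM in untreated cultures at 24 h. Variant 8203, which also holds a run of aspartates, went from 493 ± 323 CPM to 7 reads at dose 150 and 10 reads at dose 200. Variants 8236, 8209 and 8248 were the largest falls among variants with 4, 5 and 6 methionines, with log2 changes at dose 200 of -9.71, -8.71 and -8.70 and with 9, 7 and 9 reads left. Their parents fell too, with log2 changes of -5.15, -7.24 and -4.97. Of the 26 members that fell at dose 150, 11 had no read left, a share that was not counted over all entries.

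The comparison with the parent asks what the exchange of glycine for methionine did within 1 peptide. Over the 100 pairs the mean log2 change of the variant minus that of its parent was 2.65 ± 0.11 after 72 h at dose 200 (SD over 5 barcodes), and it was positive in 81 pairs. In 6 pairs a peptide was hardly read at 0 h, under a mean of 10 counts. The parents of variants 8254 and 8284 and the variants 8276 and 8218 had no read in any library, so those differences carry the change of the other peptide alone. The parent of variant 8238 had a mean of 0.6 counts at 0 h and variant 8234 one of 2.8. Over the remaining 94 pairs the mean was 2.88 ± 0.12 and 78 were positive. The 5 barcodes gave 2.78, 2.72, 2.53, 2.70 and 2.53. At dose 150 it was 2.13 ± 0.11, positive in 82 of the 100 pairs (2.31 ± 0.12 over the 94), and in untreated cultures at 24 h it was 0.32 ± 0.06, positive in 79. The spread between pairs was far wider than that between barcodes, with an SD over peptides of 3.26 and quartiles of 0.35 and 5.04 at dose 200. The difference was 0.12 ± 0.03, 0.41 ± 0.11 and 1.56 ± 0.05 at 12, 24 and 48 h at dose 200, and 0.19 ± 0.04, 0.33 ± 0.08 and 1.07 ± 0.08 at dose 150. Unlike a change in share, this difference holds the library scaling in common to both peptides.

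Each pair was also tested with limma in a fit over all 19 substitution series. At dose 200, 48 of 93 methionine pairs passed with the variant above its parent and 3 with it below, where 12.7% of all pairs passed above and 15.7% below. At dose 150, 42 of 93 passed above and 6 below, where 9.51% and 21.8% of all pairs did. In untreated cultures at 24 h none of 94 passed in either direction, against 0% of all pairs, and 44 passed above and 8 below with the barcode as a block, against 17.1% and 34.8%. With that block, 65 passed above and 9 below at dose 200, against 33.1% and 30.8% of all pairs, and 64 and 11 at dose 150, against 29.2% and 40.4%. The median difference was 3.22 at dose 200 and 2.67 at dose 150, where the medians over all pairs were 0.05 and -0.49.

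The calls of members and parents give the same comparison as counts. Of 97 parents tested at dose 200, 4 rose and 72 fell, against 1.88% and 91.2% of all entries, and at dose 150, 4 rose and 59 fell, against 1.96% and 88.6%. With the barcode as a block these were 7 and 82 at dose 200, against 3.44% and 94.5%, and 11 and 74 at dose 150, against 4.49% and 92.8%. Among the variants of the 72 fallen parents, 18 rose, 26 fell, 26 did not pass and 2 were not tested. Among the variants of the 21 parents that did not pass, 14 rose, 5 did not pass and 2 were not tested. Of the 4 parents that rose, 3 had a variant that rose and 1 had a variant that fell.

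The largest gain over a parent was that of variant 8222, which has 5 methionines, 2 of them adjacent. It had 374, 1109, 96.7, 1398 and 472 CPM at 0 h and 5108, 15009, 1326, 21300.3 and 6365 CPM after 72 h at dose 200. Its parent had 287, 543, 18.7, 25.2 and 108 CPM at 0 h and 9.07, 12.5, 0.884, 0 and 1.76 CPM at 72 h. The variant rose and the parent fell in all 5 barcodes, and their log2 changes differed by 8.43 ± 1.20 at dose 200 (limma adjusted p = 0.000125) and by 7.33 at dose 150 (limma adjusted p = 0.000533). Variant 8235 was second, with a difference of 8.12 ± 0.95 (limma adjusted p = 3.72e-05).

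In the other large gains the parent's fall was larger than the variant's own change. Variant 8193 had 643, 1705, 1446, 709 and 921 CPM at 0 h and 1259.8, 3827, 2931, 2102 and 3445 CPM after 72 h at dose 200. Its parent went from 373, 222, 129, 46.1 and 195 CPM to 1.4, 0.715, 0, 0 and 0 CPM. The variant's own rise at dose 200 did not pass (2.5-fold, edgeR adjusted p = 0.0884), but did with the barcode as a block (adjusted p = 8.21e-19) and at dose 150 (log2 change of 2.20, edgeR adjusted p = 0.00358). The difference from the parent was 8.08 ± 0.92 (limma adjusted p = 3.03e-05). Variant 8230 rose 12.7-fold while its parent, with 1156 ± 1302 CPM at 0 h, ended at 65.3 ± 63.3 CPM, and the difference was 7.54 ± 0.83. Variants 8197 and 8281, with methionines at 4, 9, 10 and 11 and at 5, 6, 8, 12 and 15, exceeded their parents by 7.38 ± 1.27 and 7.35 ± 1.03. The first of these had a 2.78-fold change that passed only with the barcode as a block (edgeR adjusted p = 0.0672, and 2.24e-16 with the block). The second rose 3.73-fold (edgeR adjusted p = 0.023), which did not hold without barcode 4 (adjusted p = 0.0557).

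In 3 pairs the variant passed below its parent at dose 200. Variant 8250, with 3 methionines at its N-terminus and 1 at its C-terminus, was the variant of a parent that rose. It had 180.1, 707, 394, 232 and 50 CPM at 0 h and 4.88, 11.4, 17.4, 4.05 and 3.08 CPM at 72 h, while its parent had 105, 245, 0.935, 13.4 and 154 CPM at 0 h and 990.2, 2710.4, 14.1, 161 and 1729.5 CPM at 72 h. The parent rose in all 5 barcodes (log2 change of 3.44, edgeR adjusted p = 0.00124) and the variant fell in all 5 (log2 change of -5.24 ± 1.01, edgeR adjusted p = 3.44e-06), a difference of -8.15 ± 1.76 (limma adjusted p = 0.00272). The parent's level differed widely between barcodes at 0 h. With TMM factors the variant's own fall shrank to -0.45 on the log2 scale and did not pass (edgeR adjusted p = 0.645). Variant 8260 went from 1853, 581, 919, 619.9 and 1447 CPM to 1.4, 0.357, 0.884, 2.7 and 4.84 CPM, and its parent from 465 ± 158 to 48.4 ± 95.4 CPM. The difference of -3.32 ± 1.15 passed over 5 barcodes (limma adjusted p = 0.041) but not without barcode 1, 2, 3 or 5 (adjusted p = 0.102, 0.0833, 0.101 and 0.0782). The third pair was that of variant 8225.

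By number of methionines, the gain over the parent was broad and the absolute outcome was not. At dose 200 the mean difference from the parent was 0.26 ± 0.28 for the variant with 1 methionine, 2.40 ± 0.42 for 2, 2.36 ± 0.16 for 3, 2.97 ± 0.18 for 4, 3.03 ± 0.30 for 5 and 1.10 ± 1.12 for 6 (SD over 5 barcodes). At dose 150 it was 1.92 ± 0.55, 1.74 ± 0.09, 2.36 ± 0.12 and 2.72 ± 0.29 for 2, 3, 4 and 5, where the classes of 2 and 4 differed by less than the SD over barcodes. The variants' own mean log2 change was -0.10 ± 0.15 for 3 methionines, -0.18 ± 0.22 for 4, -1.77 ± 0.22 for 5 and -3.26 ± 0.58 for 6. The parents' mean log2 change was -2.40 ± 0.15, -2.46 ± 0.29, -3.15 ± 0.17, -4.80 ± 0.29 and -4.35 ± 0.89 in the classes of 2 to 6 methionines, whose parents hold from 8 down to 4 tryptophans. Over all entries tested at dose 200, 1.88% rose and 91.2% fell. Of 11 variants with 2 methionines tested, 4 rose and 2 fell. Of 28 with 3, 10 rose and 7 fell, of 33 with 4, 14 rose and 8 fell, of 20 with 5, 6 rose and 10 fell, and of 3 with 6, none rose and 2 fell. The share of all reads held by the 30 variants with 3 methionines went from 1.39 ± 0.258% at 0 h to 6.44 ± 2.18%, and that of the 35 with 4 from 1.28 ± 0.243% to 6.41 ± 1.51%.

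Leucine at the same positions gave another pattern across these classes. The mean difference of the leucine variants from the same parents was 2.61 ± 0.48 for 2 exchanged residues, 2.65 ± 0.28 for 3, 1.84 ± 0.23 for 4, 1.92 ± 0.26 for 5 and -0.93 ± 0.72 for 6 at dose 200. Methionine thus lay above leucine in the classes of 4 and 5 by more than the SD over barcodes, and below it, by about the SD or less, in the classes of 2 and 3. That SD does not cover the spread between peptides, which was far wider. For methionine variants minus parents it was 3.26 over all 100 pairs. Differences between the residues by class were not tested. Alanine, a small side chain, gave 0.13 ± 0.32, 0.33 ± 0.32, 0.76 ± 0.24 and 1.16 ± 0.27 for 2 to 5 residues.

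By position, each site was split into peptides in which its glycine was exchanged and peptides in which a glycine stayed there, and the difference from the parent was averaged on either side. These splits are descriptions, since peptides share residues at other sites. The widest gap was at position 12, where 21 exchanged peptides had a mean gain over the parent of 4.47 ± 0.31 and 24 peptides that kept the glycine had 2.12 ± 0.24 at dose 200 (SD over 5 barcodes). The SD over peptides was 2.82 and 2.39. The gap of 2.35 ± 0.51 was 1.90 ± 0.50 at dose 150, and for leucine it was 1.56 and for alanine 0.14 at dose 200. Position 14 had a gap of 1.43 ± 0.50 over 10 and 12 peptides, and position 20, the C-terminal residue, one of 1.19 ± 0.39 over 12 and 11. At position 14 the variants' own log2 changes differed by only 0.30 ± 0.36, while those of the parents differed by -1.13 ± 0.25. Leucine had gaps of 0.72 ± 0.38 and 2.45 ± 0.35 at positions 14 and 20. Gaps in the other direction were found at position 3, with 1.63 ± 0.29 for 29 exchanged peptides and 3.52 ± 0.11 for 21 that kept the glycine, and at positions 9, 13, 15 and 17, with gaps of -1.41 ± 0.34, -1.64 ± 0.68, -1.40 ± 0.62 and -1.35 ± 0.55. At position 3 leucine had a wider gap of -3.20, and at positions 9, 13, 15 and 17 its gaps were -2.05, -2.50, -1.57 and -0.85. The 10 most abundant variants include methionine at position 12 in 8235, 8256, 8210, 8222 and 8277. The effect of exchanging 1 such position alone was not tested.

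By neighbours, variants with a larger share of methionines next to an aspartate had higher log2 changes. The 40 variants in which over 50% of the methionines touch an aspartate had a mean log2 change of 0.42 at dose 200 and the other 60 had -1.15, a gap of 1.57 ± 0.17 (SD over 5 barcodes). For the difference from the parent the gap was 0.99 ± 0.28. The split was not matched for the number of aspartates, which falls as that of methionines rises. Among variants with 3, 4 and 5 methionines, the Spearman correlation of this share with the log2 change at dose 200 was 0.23, 0.14 and 0.44. For their parents it was 0.13, -0.29 and 0.08. The same split gave a gap in log2 change of 0.58 ± 0.22 for the parents. For leucine and alanine at the same positions it gave 2.31 ± 0.18 and 0.93 ± 0.06, gaps that include that of the parents. In the difference from the parent, the gap was 1.73 ± 0.30 for leucine, 0.35 ± 0.26 for alanine and 0.33 ± 0.24 for proline. Leucine thus shared the gap over the parent, while those of alanine and proline were little wider than the SD over barcodes. Contact with tryptophan showed a gap of -0.33 ± 0.14 over 42 and 58 variants, and contact with another methionine one of -0.63 ± 0.08 over 46 and 54. In the parents these 2 gaps were 0.02 ± 0.22 and -0.94 ± 0.23, and in the difference from the parent -0.35 ± 0.15 and 0.30 ± 0.19. The 47 variants with over 33.3% of their methionines next to a glycine had a mean of -1.42 and the other 53 had 0.28. Most of this gap of -1.70 was present in the parents, at -1.05 ± 0.21, and the difference from the parent had -0.65 ± 0.12. Variants whose longest run of tryptophan and methionine exceeded 3 residues had a mean log2 change of -1.38 and the others 0.13, over 43 and 57 variants. Their parents had a gap of -1.17 ± 0.14, and the difference from the parent one of -0.34 ± 0.21.

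The spacing of aspartates is a feature of the parent that the exchange left as it was. It was chosen as a split after the values had been seen. The split was not matched for the number of aspartates, which falls as that of methionines rises. Among variants with 3, 4 and 5 methionines, the Spearman correlation of the longest stretch with the log2 change at dose 200 was -0.32, -0.56 and -0.59. For their parents it was -0.58, -0.41 and -0.34. In the 25 peptides with no more than 3 or 4 residues in a row without an aspartate, the variants had a mean log2 change of 1.74 ± 0.12 at dose 200 and the parents -0.86 ± 0.11. With 5 or 6 such residues, over 46 peptides, the means were -0.50 ± 0.12 and -3.57 ± 0.16, and with 7 to 12, over 29 peptides, they were -2.51 ± 0.17 and -4.54 ± 0.32. Of the variants tested, 14 of 23 rose and 1 fell in the class with the shortest stretches, 17 of 46 rose and 13 fell in the middle class, and 4 of 27 rose and 15 fell in the class with the longest. The parents gave 3 higher and 7 lower of 24, 1 and 38 of 46, and 0 and 27 of 27. Over all entries tested at dose 200, 1.88% rose and 91.2% fell. The gain over the parent was 2.60 ± 0.08, 3.08 ± 0.15 and 2.03 ± 0.16 in these classes.

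Direct contacts between tryptophan and aspartate, also chosen after the values had been seen, were counted in each peptide. This split too was not matched for the number of aspartates. Among variants with 3, 4 and 5 methionines, the Spearman correlation of contacts with the log2 change at dose 200 was 0.19, 0.11 and 0.20. For their parents it was 0.61, 0.38 and 0.72. Of the peptides with 0 to 4 contacts, 19 of 53 variants rose and 21 fell at dose 200, while 0 of 54 parents rose and 49 fell. Over all entries tested at this dose, 1.88% rose and 91.2% fell, and the parents with 0 to 4 contacts lay near these shares. With 5 or 6 contacts 12 of 34 variants rose and 7 fell, with 2 and 20 of 34 parents, and with 7 or 8 contacts 3 of 8 variants rose and 1 fell, with 1 and 3 of 8 parents. The gain over the parent in these 55 peptides was 3.02 ± 0.17, against 2.43 ± 0.14 over the 35 with 5 or 6 contacts and 1.53 ± 0.36 over the 9 with 7 or 8.

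The library holds 10 other residues at exactly the positions of the methionines. Among methionine, these 10 and the parent's glycine, methionine gave 1 of the 3 highest log2 changes for 65 of 100 parents at dose 200, proline for 53 and leucine for 52. The single highest change belonged to leucine for 37 parents, to methionine for 25 and to proline for 14. The leucine variants held 44% of all reads at this time, the methionine variants 18.3% and the proline variants 8.16%. Methionine had a median log2 change of 0.73, while leucine had -0.64, proline -0.86, asparagine -1.48 and alanine -2.43, and it was lowest for serine and cysteine, at -5.55 and -6.76. These ranks and medians cover all 100 parents without a count minimum. A peptide with few or no reads shows almost no log2 change, and so can rank high where the others fell. Tested pair by pair with limma, methionine passed above cysteine for 67 of 94 parents and below it for 1, and above serine for 64 of 93 and below for 3, where 46.3% of all 914 pairs of methionine with another residue passed above and 6.67% below. Against valine and isoleucine it passed above for 53 of 90 and 45 of 84 and below for 5 and 6. Against alanine, threonine, glutamine and asparagine it passed above for 39 of 88, 39 of 95, 41 of 91 and 36 of 94, and below for 3, 7, 6 and 12.

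Between methionine and leucine few pairs passed in either direction without the barcode as a block. Methionine passed above leucine for 12 of 94 parents and below for 7, with a median difference of -0.08. With the barcode as a block these counts were 31 and 35, where 63.3% of all pairs of methionine with another residue passed above and 15.3% below. Against proline, which bends the backbone, methionine passed above for 27 of 91 and below for 11, and for 49 and 24 with the block. The leucine partner of variant 8235 stood at 1084 ± 273 CPM at 0 h and 194940.0 ± 57070.3 CPM after 72 h at dose 200. This 1 peptide thus made up a large part of the 44% of reads held by the leucine variants. Variant 8235 changed by 2.40 less on the log2 scale, a difference of -2.40 ± 0.73 (limma adjusted p = 0.0106).

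Single pairs differed widely in both directions. Variant 8278 had 556, 202, 814, 176 and 188 CPM at 0 h and 7541, 2970.3, 13031, 4064 and 2345 CPM after 72 h at dose 200. Its leucine partner had 511, 321, 394, 305 and 45.8 CPM at 0 h and 0.698, 0.357, 1.47, 0 and 0 CPM at 72 h. All 5 barcodes rose for methionine and fell for leucine, and the log2 changes differed by 11.26 ± 0.88 (limma adjusted p = 1.78e-07). Variants 8195, 8196 and 8228 followed, with differences of 10.26 ± 0.89, 8.18 ± 1.14 and 7.69 ± 1.05. These 3 rose 4.94-fold, 6.34-fold and 4.54-fold, while their leucine partners went from 677, 183 and 230.2 CPM to 1.62, 2.24 and 2.88 CPM.

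In the other direction stood variant 8241, which has methionines at positions 6, 12, 13 and 20. It had 97, 57.8, 22.4, 9.23 and 53.5 CPM at 0 h and 55.1, 21.8, 3.83, 0.674 and 20.2 CPM after 72 h at dose 200. Its leucine partner had 595, 323, 849, 78.9 and 1559 CPM at 0 h and 9162, 3725, 14097, 1324 and 17512 CPM at 72 h. The leucine peptide rose in all 5 barcodes, and the difference was -5.47 ± 1.03 (limma adjusted p = 0.000274). The methionine variant's own log2 change of -1.23 did not pass (edgeR adjusted p = 0.19), passed as a fall with the barcode as a block (adjusted p = 0.00179) and was 3.60 with TMM factors. Variant 8289 lay below its leucine partner by 3.87, a difference of -3.87 ± 1.20 (limma adjusted p = 0.0116), and went from 272 ± 166 to 22.1 ± 8.87 CPM, a change whose sign turned with TMM factors (log2 change of 1.04, adjusted p = 0.279). Variant 8213 rose 5.23-fold, but less than its leucine partner, with a difference of -2.78 ± 0.95 (limma adjusted p = 0.0213) that did not pass without barcode 3 or 5 (adjusted p = 0.0554 and 0.0586). Variant 8260 and its leucine partner were both lost, and their difference of -2.68 ± 0.83 passed (limma adjusted p = 0.0111), though not without barcode 3 (adjusted p = 0.0573), nor with a prior count of 0.5 (adjusted p = 0.201).

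Both doses were compared directly at 72 h, where they share no library. Of 76 members tested between doses 200 and 150, none rose and none fell with edgeR without the block, against 0% of all entries in either direction. At an unadjusted p under 0.05 there were 0 higher and 1 lower. DESeq2 called none. With the barcode as a block, 12 members rose and 52 fell, against 9.49% and 75.3% of all entries. The median log2 change of the members was -0.58, against -0.94 over all entries, and it was 0.25 with TMM factors and 0.27 with DESeq2, so its direction depends on the scaling. Variant 8235 had 10704 ± 5795 CPM at dose 150 and 19570.2 ± 9516 CPM at dose 200, and variant 8222 had 11567 ± 10101 and 9822 ± 8139.7 CPM (SD, n = 5).

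Of the 97 members with at least 10 counts at 0 h, 40 were highest after 48 h at dose 200 and 16 at 72 h, whereas at dose 150, 21 were highest at 48 h and 35 at 72 h. In single barcodes these counts ran from 33 to 39 and from 16 to 23 at dose 200, and from 17 to 27 and from 33 to 40 at dose 150. Over all 10433 entries with as many counts at 0 h, 2.9% were highest at 48 h and 1.03% at 72 h at dose 200, and 2.59% and 1.6% at dose 150. These are times of the highest share of the pool, and no scaling other than total counts was tried for them. Variant 8193 had its highest level at 48 h, with 3276 ± 1744, 4445 ± 1958 and 2713 ± 1038 CPM at 24, 48 and 72 h at dose 200. Variant 8235 was highest at 72 h, with 2045 ± 1065, 8874 ± 4484 and 19570.2 ± 9516 CPM. Variant 8260 held 1286 ± 667 CPM at 12 h, near its untreated level of 1359.9 ± 700.1 CPM, and then fell to 154 ± 66.2, 6.85 ± 4.75 and 2.03 ± 1.79 CPM at 24, 48 and 72 h.

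The 4 members not tested at 72 h against 0 h had a mean under 10 counts over the libraries of both groups. Of these, 3 were under 10 counts at 0 h as well. Variants 8276 and 8218 had no read in any of the 5 libraries at 0 h, which allows up to 0.387 CPM, and none in the other groups. Variant 8234 had a mean of 1.94 ± 2.26 CPM at 0 h. Variant 8272 had 13.6 ± 17.1 CPM and at least 10 counts at 0 h, and dropped out once the 72 h libraries entered the mean. The parents of these 4 variants were present, with means of 88.8, 208, 284 and 146 CPM at 0 h. The means over 100 pairs above include these 4. Among the 93 pairs tested at dose 200, the variant lay above its parent in 77.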

How the data were processed

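Read counts of 12400 library entries in 11 samples with 5 barcodes each (55 libraries) were analysed. Per the file headers, the authors deposited a raw read count for each entry in each barcode, and all values are whole numbers. Cutadapt and STAR appear in the submitters' processing notes without version or role, and how reads were assigned to entries is not given in the sources used here. The members, the lists and the comparisons were chosen with earlier results of these data known, and 3 splits of the peptides (contacts of tryptophan with aspartate, longest stretch without aspartate, mean tryptophan position) were added after seeing the values, as was a mean over pairs with at least 10 counts at 0 h in both peptides.

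Counts were tested on the whole table with edgeR 4.0.16 under R 4.3.3 (two-sided quasi-likelihood test), scaled to total counts, for entries with a mean of at least 10 counts in the libraries compared. P-values were adjusted by Benjamini-Hochberg over all entries tested in each of the 6 comparisons, with a threshold of 0.05. Differences between a variant and its parent, or between methionine and another residue at the same positions, were taken per barcode on log2 CPM with a prior count of 2 and tested with limma 3.58.1 over all pairs of all series. Means over peptides use the same log2 CPM, which understates changes of rare entries, and are given with the SD over the 5 barcodes. As alternatives, TMM factors, DESeq2 1.42.0, no filter, prior counts of 0.5 and 10, summed reads, the barcode as a replicate block, leaving out each barcode, and taking off reads spread like the 0 h pool from the dose 200 libraries were tried. The main edgeR fit and the main limma fit of pairs to the parent were tested on simulated data with known changes, for dose 200 at 72 h against 0 h only. The simulated counts were drawn independently, without pairing by barcode number, and the alternatives were not simulated. They shared a common dispersion and most simulated entries were left unchanged, whereas most entries fell in the data. The simulation therefore does not show how the fits behave under such a shift. Totals per library ran from 683589 to 3392656, and intervals and floors cover counting error only.

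Barcode numbers come from the column names. Deviations from the group mean correlated at 0.43 to 0.958 between the same numbers and at no more than -0.0888 between different ones, and 5 of 5 barcodes matched their own number best in all 6 comparisons, so the numbers pair the samples.

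Peptides named in the text follow a rule: the 10 highest means after 72 h at dose 200, the 6 largest gains and 6 largest losses against the parent (2 losses met the rule), the largest rise and fall for each number of methionines, the 4 largest differences from leucine in each direction, the 3 largest changes in each direction between the doses (none passed) and after 24 h at dose 200 (none rose), and members below the count minimum. Variants 8251 and 8225 were named after their values were seen.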

Additional observations from a re-analysis of the deposited data

Results flagged for a closer look

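Among the 10 most abundant variants and the members' share of the pool, 44 groups of 5 barcodes were examined for 1 barcode standing apart, which chance gives in about 1 of 20 groups. There were 7 such groups, and they belong to 3 peptides. In variant 8240 barcode 2 had 3323 CPM at 0 h, where the other barcodes had 268 to 778 CPM, and it had 26888 CPM after 72 h at dose 150 and 21504 CPM at dose 200, where the others had 2578 to 6693 and 2119.8 to 6280.0 CPM. In variant 8277 barcode 4 had 918 CPM at 0 h, against 179 to 357 CPM in the others, 11756 CPM after 72 h at dose 150, against 1629.6 to 3801 CPM, and 19094 CPM at dose 200, against 2832 to 5137 CPM. In variant 8233 barcode 2 had 1391 CPM at 0 h, against 148 to 383 CPM. In the peptides with 3 such groups the same barcode stood apart at 0 h and at 72 h.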

How the results depend on the processing

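Counts of called members depended most on the replicate block and on scaling. With the replicate block (barcode number), members higher and lower were 58 and 11 in untreated cultures at 24 h, 65 and 18 after 24 h at dose 150, 62 and 19 after 24 h at dose 200, 54 higher after 72 h at dose 200, and 12 and 52 between the doses. Pairs above and below the parent were then 44 and 8 untreated, 64 and 11 at dose 150, and 9 below at dose 200, and methionine passed above and below leucine for 31 and 35 parents and proline for 49 and 24. DESeq2 gave 4, 1 and 3 members higher at 24 h untreated, at dose 150 and at dose 200, and 58 higher after 72 h at dose 200, where TMM factors gave 69 higher and 18 lower. In untreated cultures TMM factors gave 0 lower and no filter gave 2. Mean differences from the parent were 0.25 untreated and 2.28 at dose 150 from summed reads, 2.01 at dose 150 and 2.32 at dose 200 at a prior count of 10, and 2.82 at dose 200 at 0.5. Over the 94 pairs with at least 10 counts at 0 h in both peptides, an alternative added after seeing the data, they were 2.31 at dose 150 and 2.88 at dose 200. Leaving out each barcode gave 0 to 1 lower untreated, 10 to 11 and 0 lower at 24 h at doses 150 and 200, 41 to 43 higher and 25 to 27 lower after 72 h at dose 150, 33 to 35 and 28 to 32 at dose 200, and 0 in the other counts of members. It gave 35 to 41 pairs above and 3 to 6 below the parent at dose 150, 40 to 44 and 1 to 3 at dose 200, 11 to 12 and 3 to 8 against leucine, 20 to 24 and 11 against proline, and mean differences of 0.30 to 0.34, 2.10 to 2.17 and 2.62 to 2.68. Without barcode 1, 2, 3, 4 or 5 the 9 falls after 24 h at dose 200 were all lost. With TMM factors 2 changes after 72 h at dose 200 turned in sign: variant 8241 to 3.60 (adjusted p = 0.00359) and variant 8289 to 1.04 (adjusted p = 0.279). The cause of these differences was not tested. Taking off reads like the 0 h pool kept counts of pairs within 1.5 times, with 52 above and 3 below the parent and 17 and 10 against leucine.

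Depth limits the lost members: after 72 h at dose 200 the largest falls rest on 7 to 10 reads over 5 libraries, within which leftover DNA of the 0 h pool cannot be told apart from living cells. Number of methionines and number of tryptophans and aspartates cannot be told apart. Whether barcodes stand for separate cultures is not stated in the labels.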
